A study of Mus musculus with 10 samples.

Results

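Genes of glycolysis and of lactate and pyruvate use were described in RNA sequencing data of murine P7 cerebella, SHH MB and MYC/SMARCA4 tumors. The 40 genes were chosen by their symbols and cover glucose and lactate transporters, glycolytic enzymes with their isoforms, and proteins that handle pyruvate. All 40 were among the 50559 genes counted, and all 40 passed the filter on low counts, as did 29952 genes in total. MYC/SMARCA4 tumors (n = 4) arose in cerebella of immunodeficient CD1nu/nu mice from transplanted granule cell precursors (GCPs). These came from Math1-creERT2::Smarca4fl/fl pups given 0.4 mg tamoxifen at P3 and were transduced with a lentiviral construct of Myc and GFP. Tumors 1 to 4 are labelled with 112, 96, 89 and 79 days of age. P7 cerebella (n = 3) were whole cerebella of Math1-creERT2::Smarca4fl/fl mice at 7 days of age after 0.4 mg tamoxifen at P3. These controls therefore carry the same induced deletion in part of their GCPs, as creERT2 is driven by the Math1 promoter of this lineage. SHH MB (n = 3) came from Math1-cre::Smofl/wt mice, labelled with an age of 7 days. GCPs were not sorted before transplantation, and RNA came from punches of FFPE tissue that hold all cells of the area. Age, transplantation, host and tissue of the MYC/SMARCA4 tumors differ from those of both controls together and cannot be told apart.

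Glycolysis splits glucose to pyruvate in the cytosol, and lactate dehydrogenase turns pyruvate into lactate, which leaves the cell through monocarboxylate transporters. Pyruvate that enters mitochondria is oxidized by the pyruvate dehydrogenase complex, unless pyruvate dehydrogenase kinases switch this complex off. Many steps have isoforms with a known tissue bias, such as the neuronal enolase Eno2 against the widespread Eno1, and GCPs and SHH MB are known for Hk2 as their hexokinase. MYC is known to activate many genes of this pathway through the E-box CACGTG.

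This motif, which is its own reverse complement, was searched in RefSeq promoter windows of the build GRCm38.p6, 250 bases before to 50 bases after each annotated start. Windows were found for 38 of the 40 genes, and Slc2a3 and Slc16a7 had none. At least 1 window held CACGTG in 7 of 38 genes (18.4%), namely Pfkm, Pfkfb2, Pfkfb3, Ldha, Slc16a1, Pdk2 and G6pc3, and in 8.09% of all 27025 genes with a window. Counted by window, since genes differ in their number of starts, the motif was in 12.1% of 58 windows of these genes and in 7.15% of all 32851 windows. Of the 15 genes with a window that were called in a comparison, 2 held it (13.3%). The 250 bases before the start are shown for Slc16a1 and Pfkm, which were called higher in the tumors, and for Ldha, a gene known for lactate production, which has 2 matches, at -145 and -48 from its start. Capitals mark the motif, and each run was found once in GRCm39, on the plus strand at chr3:104545730-104545979, chr15:97990220-97990469 and chr7:46494978-46495227. Pfkm has further annotated starts, whose windows held no match, and the start of the Ldha run lies inside the annotated gene, downstream of its first base. A match is a description of these letters and no evidence of binding.
Slc16a1: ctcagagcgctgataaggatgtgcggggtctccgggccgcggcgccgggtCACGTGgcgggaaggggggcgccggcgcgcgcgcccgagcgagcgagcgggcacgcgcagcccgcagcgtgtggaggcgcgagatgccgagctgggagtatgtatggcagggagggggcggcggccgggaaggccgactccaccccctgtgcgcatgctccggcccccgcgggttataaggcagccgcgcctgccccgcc
Pfkm: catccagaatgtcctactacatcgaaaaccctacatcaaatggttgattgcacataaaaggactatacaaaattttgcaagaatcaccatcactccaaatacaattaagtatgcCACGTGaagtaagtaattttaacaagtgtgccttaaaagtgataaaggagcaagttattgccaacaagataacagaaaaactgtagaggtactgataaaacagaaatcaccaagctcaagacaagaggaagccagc
Ldha: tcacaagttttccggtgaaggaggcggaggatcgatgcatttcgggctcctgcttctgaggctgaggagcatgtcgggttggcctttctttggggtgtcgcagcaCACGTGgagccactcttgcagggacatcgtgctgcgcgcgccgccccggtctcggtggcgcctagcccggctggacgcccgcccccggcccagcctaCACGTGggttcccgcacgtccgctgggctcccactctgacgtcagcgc

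Total counts ranged from 5663491 to 9352109 per library. Levels are given as CPM, counts scaled to the TMM-normalized library size, and 3 counts correspond to 0.307 to 0.744 CPM. The 40 genes took 0.292% to 0.381% of all counts in the tumors, 0.220% to 0.241% in P7 cerebella and 0.167% to 0.183% in SHH MB, so that the 3 groups did not overlap. Myc, the gene of the construct, had 152, 368, 1587 and 1016 CPM in tumors 1 to 4, 13.0 to 14.3 in P7 cerebella and 33.7 to 45.7 in SHH MB, with reads of the construct and the endogenous gene counted together. Smarca4, counted over the whole gene, had 208, 244, 136 and 238 CPM in tumors 1 to 4 and 221 to 282 in P7 cerebella, which overlap (log2 fold change -0.30, standard error 0.28, adjusted p = 0.49, edgeR). Against SHH MB, with 491 to 590 CPM, Smarca4 was lower in each tumor (-1.39, standard error 0.28, adjusted p = 0.0157). Counts over the whole gene do not separate its deleted part and hold all cells of the punch, so they do not measure the deletion. The paper reported that SMARCA4 protein was absent from all tumor cells in stainings and that PCR found the recombined gene in tumor biopsies. The libraries of the tumors stood apart from each other. Summed markers of mature granule neurons reached 8130, 3123, 394 and 1646 CPM in tumors 1 to 4, 1056 to 1228 in P7 cerebella and 733 to 829 in SHH MB. Markers of Purkinje cells had 11823, 2827, 379 and 1994 CPM in the tumors, 1521 to 1671 in P7 cerebella and 454 to 743 in SHH MB. Those of myelinating oligodendrocytes had 4036, 830, 118 and 449 CPM, 964 to 1144 in P7 cerebella and 132 to 403 in SHH MB. Proliferation markers were at 133 CPM in tumor 1, at 1717 to 1951 in the other tumors, at 770 to 1024 in P7 cerebella and at 2055 to 2516 in SHH MB. Markers of GCPs summed to 816 to 1912 CPM in the tumors, 1867 to 2066 in P7 cerebella and 2114 to 2470 in SHH MB, and none of their 8 genes was at 0 in any library. Astrocyte and Bergmann glia markers summed to 564 to 2801 CPM in the tumors and 1797 to 2338 in the controls, and microglia markers to 47.6 to 158 and 49.4 to 78.2 CPM. Erythrocyte markers summed to 43.1 to 198 CPM in the tumors and 87.1 to 371 in the controls. The list of skeletal muscle markers includes Pvalb, which is not specific to muscle. It summed to 594 CPM in tumor 1, with 2 of 8 at 0 counts, and to 15.5 to 112 in the other libraries. Of its 6 genes tested, 4 had a negative sign in the tumors against P7 cerebella and none was called there. Whether tumor 1 holds muscle was not tested. In bulk samples, fewer cells of a type and less RNA per cell cannot be told apart. Mitochondrial genes took 6.36% of the counts of tumor 1 2.29% to 2.94% of those of the other tumors and 1.25% to 1.59% of those of the controls. Reads of rRNA-like genes, Lars2 among them, made up 1.51% to 1.95% in the tumors, 0.353% to 0.412% in P7 cerebella and 0.603% to 0.874% in SHH MB. Both shares were higher in each tumor than in each control, and their part in the results was not tested.

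**Figure D1:**
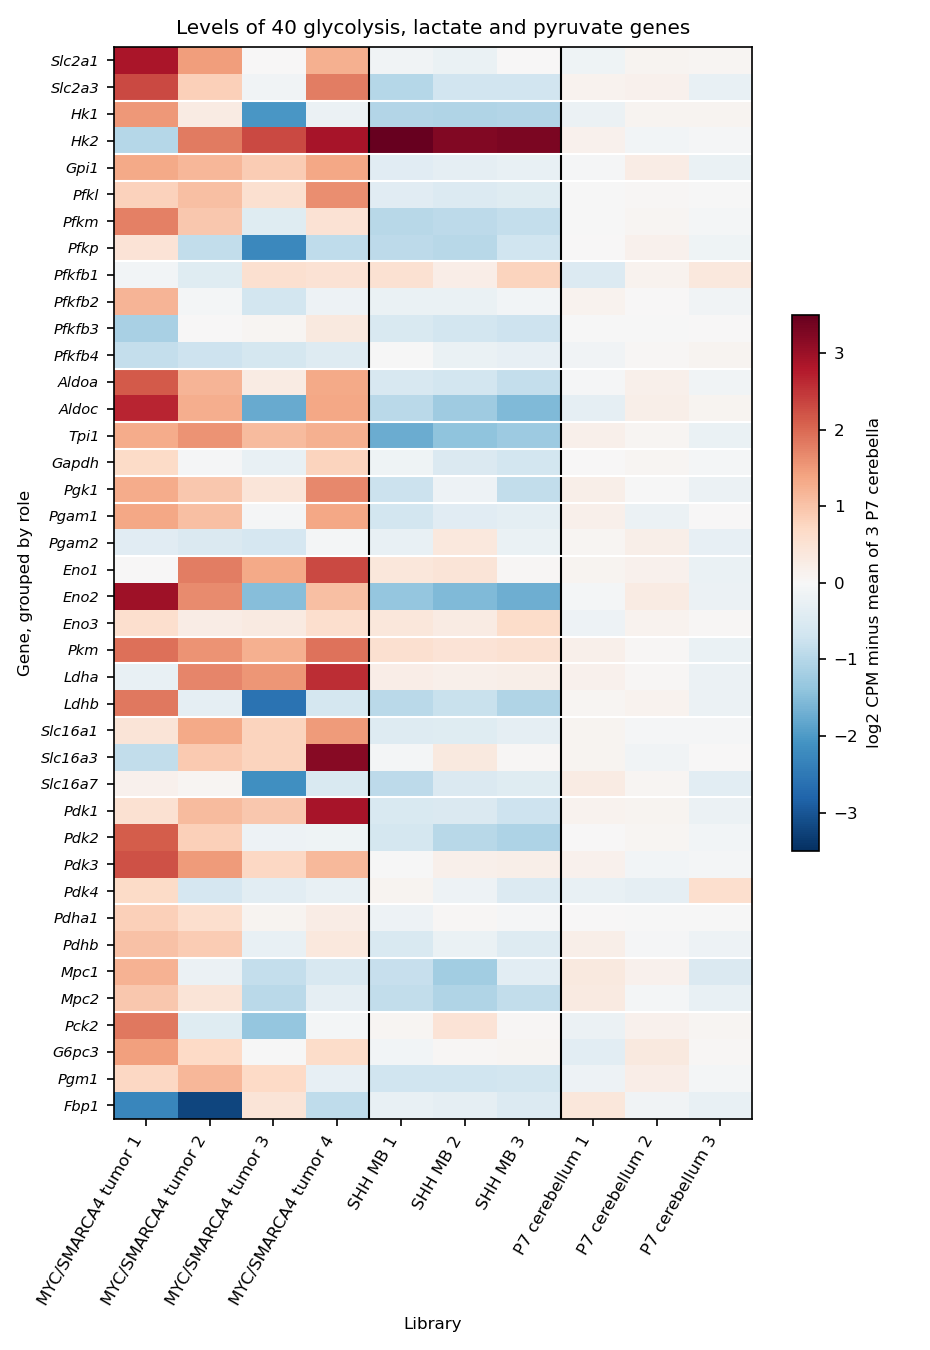
Level of each gene (rows, grouped by role) in each library (columns) as log2 CPM minus the mean of the 3 P7 cerebella, red for higher and blue for lower, with the colour scale ending at 3.5 on either side. Tpi1, Gpi1 and Pkm are red in all 4 tumors, whereas Hk1, Eno2, Aldoc and Ldhb are red in tumor 1 and blue in tumor 3.

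Against P7 cerebella, which stand for the developing cerebellum the cells were taken from, 8 of the 40 genes were higher in MYC/SMARCA4 tumors and none was lower. These were Pkm, Tpi1, Gpi1, Pdk3, Pfkl, Slc16a1, Eno1 and Aldoa, with log2 fold changes from 1.08 to 1.67 at an adjusted p of at most 0.05 (edgeR quasi-likelihood test on the counts of all 10 libraries). The 8 genes are 20% of the list, beside 3.99% of all genes tested called higher and 2.27% called lower. The median log2 fold change was 0.83 over the 40 genes and -0.05 over all genes. At an unadjusted p under 0.05, 20 genes were higher and 1, Pfkfb4, was lower, and DESeq2 called 16 higher and limma 4, neither calling any lower. The share of all genes at this unadjusted limit was not counted, so that 20 and 1 have no background to be read against. DESeq2 called 9.29% of all genes higher and limma 1.49%. The count changed with single libraries, and so did that of all genes. It was 0 with any of the 3 cerebella left out, where 0.100% to 0.227% of all genes were higher, and 2 with any of the 3 SHH MB left out, where 1.34% to 1.46% were. Without tumors 1 to 4 it was 14, 4, 18 and 4, beside 11.1%, 1.77%, 11.8% and 1.80% of all genes. A fit of only these 2 groups called 0, beside 0.206% of all genes, with a median of 0.66. All 8 genes lost their call without any of the cerebella, all but Pkm and Tpi1 also without any SHH MB, and Pfkl, Slc16a1, Eno1 and Aldoa also without tumor 2 or tumor 4. Without tumor 1, Pfkp was lower, beside 5.00% of all genes, and without tumor 3, Pfkfb4 and Fbp1 were, beside 22.8% of all genes.

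Against SHH MB, a tumor of the same lineage with another driver, 15 of the 40 genes were higher in MYC/SMARCA4 tumors and none was lower. Pkm, Tpi1, Gpi1, Pdk3, Pfkl, Slc16a1 and Aldoa were among them, joined by Slc2a3, Pfkm, Aldoc, Pgk1, Pgam1, Eno2, Pdk1 and Pgm1. Log2 fold changes ranged from 1.15 for Pkm to 3.28 for Eno2. The 15 genes are 37.5% of the list, beside 2.43% of all genes called higher and 2.26% called lower, and the median was 1.29 over the 40 genes and 0.01 over all genes. Unadjusted, 25 genes were higher and 1, Hk2, was lower, and DESeq2 called 20 and limma 8 higher, neither calling any lower. Again, the share of all genes at the unadjusted limit was not counted. DESeq2 called 7.87% of all genes higher and limma 0.839%. Without SHH MB 1, 2 or 3 the count was 1, 2 and 1, beside 0.166% to 0.188% of all genes. Without tumors 1 to 4 it was 21, 9, 22 and 13, beside 5.91%, 1.29%, 9.57% and 2.10% of all genes higher, and without tumor 3 a further 13.9% of all genes were lower. Without a cerebellum it was 9, 9 and 10, beside 0.985% to 1.17%, and a fit of only these 2 groups called 2, Tpi1 and Gpi1, beside 0.337%. Of the 15 genes, Tpi1 kept its call without each library in turn, and Pgk1 lost it only without SHH MB 1 or 3. Both comparisons use the same 4 tumors and are not independent.

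**Figure D2:**
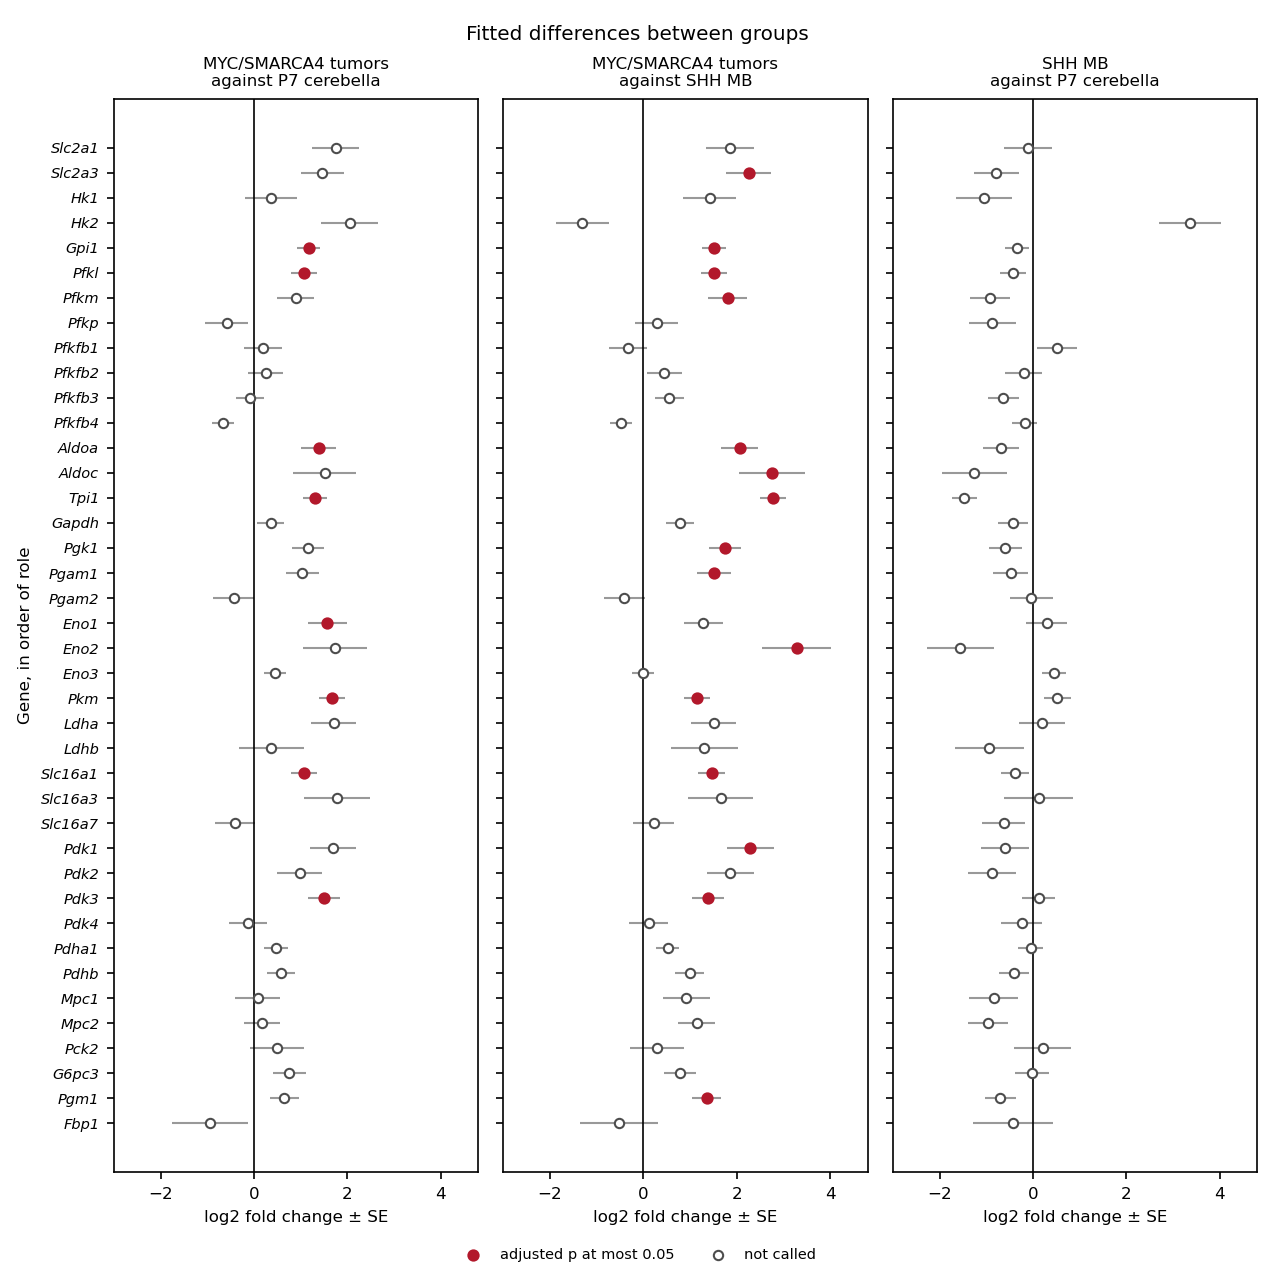
Fitted log2 fold change (x axis, bars are ± 1 standard error) of each gene in the 3 comparisons, with filled red points for an adjusted p of at most 0.05. Filled points number 8 in the first panel, 15 in the second and 0 in the last, and all of them lie above 0.

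The 3 called genes with the most even rise in CPM were Tpi1, Gpi1 and Pkm. Tpi1 encodes triose phosphate isomerase, which interconverts the triose phosphates made by aldolase, and lies on chromosome 6 of GRCm39 from 124787549 to 124791273. It had 212, 258, 187 and 206 CPM in tumors 1 to 4, 96.9, 90.9 and 73.1 in P7 cerebella 1 to 3, and 25.8, 32.6 and 35.9 in SHH MB 1 to 3. Each tumor lay above all controls, the highest tumor was 1.38 times the lowest, and SHH MB lay below P7 cerebella. The log2 fold change of Tpi1 was 1.31 against P7 cerebella (standard error 0.25, adjusted p = 0.0144) and 2.78 against SHH MB (standard error 0.27, adjusted p = 0.000147), both with the smallest p the exact permutation test allows for 4 against 3 libraries (p = 0.029). Tpi1 was called against SHH MB in all 20 alternatives run and against P7 cerebella in 15 of 20, where the fits without any of the cerebella, of only 2 groups and with a replicate block lost it. Spsb2 and Gm67878 overlap Tpi1 on the opposite strand, and 7 rows named as its copies held 4.02% to 22.9% of its own count per library. With these added, the fold changes were 1.197 and 2.61 and both stayed called.

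Gpi1, glucose-6-phosphate isomerase (chromosome 7, 33900755 to 33929780), acts on the product of hexokinase. It had 200.3, 179, 147 and 206 CPM in tumors 1 to 4, against 78.3, 96.7 and 67.9 in P7 cerebella and 60.8, 64.6 and 67.5 in SHH MB. All 4 tumors lay above all 6 controls. The log2 fold changes were 1.18 (standard error 0.25, adjusted p = 0.0198) and 1.51 (standard error 0.25, adjusted p = 0.00554), and the call held in 11 of 19 and 16 of 19 alternatives. Pkm, pyruvate kinase (chromosome 9, 59563364 to 59586663), makes pyruvate in the last step of glycolysis. Its level was 647, 509, 408 and 635 CPM in tumors 1 to 4, 192, 178 and 147 in P7 cerebella, and 255, 239 and 249.98 in SHH MB. Groups did not overlap. The log2 fold change of Pkm was 1.67 against P7 cerebella (standard error 0.28, adjusted p = 0.00884), the lowest p of the list in that comparison, and 1.15 against SHH MB (standard error 0.28, adjusted p = 0.035), called in 14 of 19 and 7 of 19 alternatives. Gene counts do not separate the M1 and M2 splice forms of Pkm, and Gm49759 overlaps it on the same strand.

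Glucose enters through Slc2a1 (GLUT1, of endothelium and glia) and Slc2a3 (GLUT3, of neurons). Slc2a3 had 263, 94.8, 48.8 and 183 CPM in tumors 1 to 4, 57.2, 58.2 and 44.2 in P7 cerebella, and 26.3, 33.2 and 33.2 in SHH MB. Each tumor exceeded each SHH MB (log2 fold change 2.25, standard error 0.48, adjusted p = 0.0192), while tumor 3 fell within the range of the cerebella (1.47, standard error 0.46, adjusted p = 0.0751). Slc2a1 had 206, 78.8, 28.7 and 67.3 CPM in the tumors, 25.4 to 30.1 in P7 cerebella and 24.2 to 28.5 in SHH MB. Tumor 3 lay within the cerebella and just above SHH MB, and neither difference was called (adjusted p = 0.0578 and 0.0568). Slc2a1 is also known from brain endothelium, whose markers summed to 332 CPM in tumor 1, 105 to 162 in the other tumors, 198 to 213 in P7 cerebella and 191 to 238 in SHH MB. The part of endothelium in its level was not tested.

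The hexokinases Hk1 and Hk2 trap glucose as its phosphate, and Hk2 is the inducible form of growing cells. Hk2 had 9.67, 69.1, 98.4 and 147 CPM in tumors 1 to 4, 21.7, 18.2 and 18.8 in P7 cerebella, and 221, 188 and 193 in SHH MB. SHH MB held the highest level, above each tumor, and tumor 1 lay below all cerebella while tumors 2 to 4 lay above. Over the 4 tumors Hk2 was not called against either control (log2 fold change 2.05, adjusted p = 0.0635, and -1.30, adjusted p = 0.218). Hk1 ran the other way among the tumors, with 303, 129, 25.5 and 92.2 CPM, against 92.3 to 113 in P7 cerebella and 50.4 to 51.8 in SHH MB. Per kilobase of transcript, Hk1 made up 98.3%, 77.3%, 32.1% and 53.4% of both hexokinases in tumors 1 to 4, 88.6% to 91.9% in P7 cerebella and 29.8% to 32.9% in SHH MB. Tumor 3 thus lay within the range of SHH MB and tumor 1 above the cerebella. The mean share of the tumors, 65.2% ± 28.7 (SD, n = 4), overlapped both controls (exact permutation test, p = 0.257 and 0.114).

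Phosphofructokinase 1 sets the pace of glycolysis, and its subunits are Pfkl, Pfkm and Pfkp. Pfkl had 79.1, 93.8, 66.9 and 139.5 CPM in tumors 1 to 4, 44.3, 46.4 and 44.1 in P7 cerebella, and 34.4, 32.4 and 33.5 in SHH MB. All tumors were above all controls, by 1.08 (standard error 0.28, adjusted p = 0.0388) and 1.504 on the log2 scale (standard error 0.28, adjusted p = 0.0102). Pfkm had 289.8, 164, 63.4 and 121 CPM in the tumors, 81.8 to 90.8 in P7 cerebella and 43.2 to 48.3 in SHH MB. It was called against SHH MB alone (1.81, standard error 0.42, adjusted p = 0.0283), with tumor 3 below the cerebella. Pfkp, the main form in the controls, had 299, 118, 45.1 and 115 CPM in the tumors, 193 to 237 in P7 cerebella and 109.8 to 132 in SHH MB, and was not called (adjusted p = 0.421 and 0.775). The share of Pfkp among the 3 subunits was 43.1%, 29.99%, 24.5% and 29.3% in tumors 1 to 4, against 58.9% to 61.8% in P7 cerebella and 57.0% to 60.2% in SHH MB. Each tumor lay below all controls (exact permutation test, p = 0.029 in both comparisons), but after adjustment over the 66 share tests run the p was 0.236. The share of Pfkm was 33.3% to 45.0% in the tumors and 23.7% to 26.9% in the controls. Pfkfb1, Pfkfb2, Pfkfb3 and Pfkfb4, which make and remove the activator of phosphofructokinase 1, were not called, with log2 fold changes between -0.66 and 0.55. The largest of these, -0.66 against P7 cerebella, was that of Pfkfb4, which had 10.2 to 13.4 CPM in the tumors and 14.9 to 19.7 in all controls, without overlap.

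**Figure D3:**
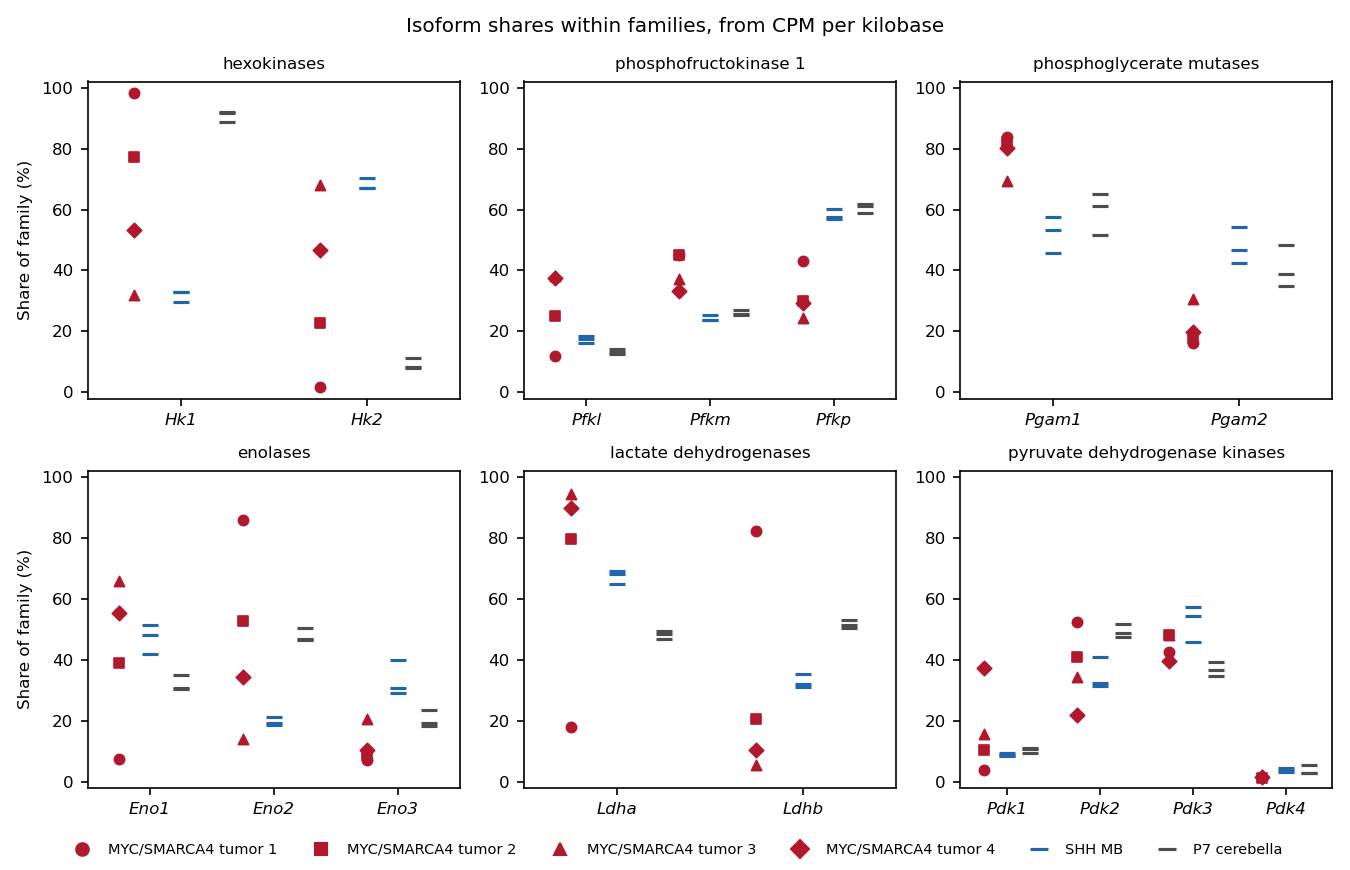
Share of each isoform within its family (y axis, percent of the summed CPM per kilobase of transcript) in 6 families, with symbols for tumors 1 to 4 and dashes for SHH MB and P7 cerebella. For Pfkp the tumors lie between 24.5% and 43.1%, below all controls, whereas for Ldha and Eno2 they spread from below to above both control groups, and for Hk1 from within SHH MB to above P7 cerebella.

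Aldolase splits the phosphorylated hexose, with Aldoa as the widespread and Aldoc as the brain form of astrocytes and Purkinje cells. Aldoa had 617, 319, 169 and 349 CPM in tumors 1 to 4, 134, 156 and 128 in P7 cerebella, and 94.6, 88.5 and 78.4 in SHH MB, with each tumor above all controls. The log2 fold change was 1.38 against P7 cerebella (standard error 0.38, adjusted p = 0.048) and 2.06 against SHH MB (standard error 0.39, adjusted p = 0.011). With rows named as copies of Aldoa added, its adjusted p against P7 cerebella was 0.0507 and no longer past the threshold. Aldoc had 633, 241, 29.2 and 256 CPM in the tumors, 81.2 to 116 in P7 cerebella and 33.9 to 51.8 in SHH MB. Its call against SHH MB (2.76, standard error 0.71, adjusted p = 0.0431) comes with an overlap, since tumor 3 lay below all controls, and the exact permutation test gave p = 0.143.

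The lower part of the pathway starts with Gapdh and the ATP-forming phosphoglycerate kinase Pgk1. Gapdh had 56.0, 34.0, 29.0 and 60.1 CPM in tumors 1 to 4 and 22.3 to 36.6 in the controls, and was not called (adjusted p = 0.434 and 0.162). Only 157 to 493 reads per library were counted for it. Pgk1 had 30.2, 23.4, 16.4 and 39.3 CPM in the tumors, 10.6 to 14.0 in P7 cerebella and 6.53 to 10.6 in SHH MB, without overlap. It was called against SHH MB (log2 fold change 1.75, standard error 0.34, adjusted p = 0.014) and narrowly missed the threshold against P7 cerebella (1.16, standard error 0.33, adjusted p = 0.0573). Pgam1, phosphoglycerate mutase, had 21.1, 17.3, 7.84 and 21.3 CPM in the tumors, 6.99 to 9.30 in P7 cerebella and 5.13 to 6.39 in SHH MB, and was called against SHH MB (1.51, standard error 0.37, adjusted p = 0.0343). Its muscle isoform Pgam2 had 1.68 to 3.53 CPM in all libraries, from 8 to 30 counts. Gapdh, Pgk1, Pgam1, Ldha, Ldhb, Eno1, Aldoa, Tpi1 and Mpc1 have rows in the files named as copies, which held up to 84.8% of the count of Pgam1 and up to 41.3% of that of Pgk1. How reads with several alignments were counted is not given in the sources used here, so that levels of these genes cannot be compared with those of other genes, and their shares within families carry the same uncertainty.

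Enolase has the widespread form Eno1, the neuronal Eno2 and the muscle form Eno3. Eno1 had 35.0, 120.04, 87.5 and 175 CPM in tumors 1 to 4, 37.2, 38.4 and 29.4 in P7 cerebella, and 45.6, 47.4 and 35.8 in SHH MB. Tumors 2 to 4 lay above all controls and tumor 1 within them, and Eno1 was called against P7 cerebella (log2 fold change 1.58, standard error 0.43, adjusted p = 0.0469, with overlap) and not against SHH MB (1.28, standard error 0.42, adjusted p = 0.107). For Eno2 the tumors had 498, 199, 22.4 and 133 CPM, P7 cerebella 54.9 to 77.1 and SHH MB 19.3 to 24.6. Tumor 3 was within SHH MB and the other tumors above all controls. Eno2 was called against SHH MB (3.28, standard error 0.74, adjusted p = 0.0256, with overlap), where markers of mature granule neurons and of Purkinje cells were also lowest in tumor 3. Eno3 had 20.2 to 25.1 CPM in the tumors, 14.6 to 18.2 in P7 cerebella and 20.4 to 26.0 in SHH MB, and was not called.

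Lactate is made by Ldha, whereas Ldhb favours the way back to pyruvate. Ldha (chromosome 7, 46490899 to 46505061), with 2 E-boxes before the RefSeq start shown, which is an internal one, had 49.3, 193, 173 and 353 CPM in tumors 1 to 4, 64.8, 60.7 and 51.2 in P7 cerebella, and 68.8, 66.8 and 67.5 in SHH MB. Tumors 2 to 4 lay above each control, and tumor 1 lay below each. With all tumors, Ldha missed the threshold (log2 fold change 1.71, standard error 0.48, adjusted p = 0.0536 against P7 cerebella, and 1.51, standard error 0.48, adjusted p = 0.0954 against SHH MB). Ldhb had 219, 48.2, 9.79 and 39.0 CPM in the tumors, 52.4 to 66.2 in P7 cerebella and 29.3 to 34.9 in SHH MB. The share of Ldha among both was 17.8% in tumor 1 and 79.4%, 94.4% and 89.7% in tumors 2 to 4, against 46.9% to 49.5% in P7 cerebella and 64.8% to 69.0% in SHH MB. The tumors thus flanked both controls (exact permutation test, p = 0.343 and 0.943).

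Lactate crosses the membrane through Slc16a1 (MCT1), the export form Slc16a3 (MCT4) and the neuronal Slc16a7 (MCT2). Slc16a1, with the E-box at -200 from its start, had 95.2, 175, 118 and 196 CPM in tumors 1 to 4, 74.2, 66.7 and 67.2 in P7 cerebella, and 50.9, 51.8 and 56.1 in SHH MB. It was above all controls in each tumor, with log2 fold changes of 1.08 (standard error 0.28, adjusted p = 0.0436) and 1.46 (standard error 0.29, adjusted p = 0.0143), and held its call in 5 of 19 and 14 of 19 alternatives. Slc16a3 had 2.97, 11.0, 9.93 and 53.4 CPM in the tumors and 5.24 to 7.31 in all controls. Tumors 2 to 4 were above and tumor 1 below all controls, and it was not called (adjusted p = 0.143 and 0.214). Slc16a7 had 43.9, 41.6, 8.68 and 27.4 CPM in the tumors, 30.4 to 48.6 in P7 cerebella and 20.8 to 29.5 in SHH MB, and was not called either (adjusted p = 0.538 and 0.819).

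Pyruvate dehydrogenase kinases switch off the complex that oxidizes pyruvate in mitochondria. Pdk1 (chromosome 2, 71703488 to 71734202) had 37.9, 56.1, 49.7 and 193 CPM in tumors 1 to 4, 28.2, 27.6 and 22.3 in P7 cerebella, and 17.7, 18.3 and 15.6 in SHH MB. Each tumor lay above all controls, with tumor 4 far above the others, and Pdk1 was called against SHH MB (log2 fold change 2.29, standard error 0.51, adjusted p = 0.0236) and not against P7 cerebella (1.70, standard error 0.49, adjusted p = 0.0586). Pdk3, encoded on the X chromosome, had 206, 122, 71.9 and 95.5 CPM in the tumors, 41.0 to 48.7 in P7 cerebella and 42.9 to 50.3 in SHH MB. It was called in both comparisons (1.504, standard error 0.34, adjusted p = 0.0244, and 1.38, standard error 0.34, adjusted p = 0.0357). Pdk2 had 238, 97.4, 48.0 and 49.4 CPM in the tumors against 25.9 to 35.8 in SHH MB, without overlap, and 51.2 to 57.4 in P7 cerebella, and was not called (adjusted p = 0.0538 and 0.219). Pdk4 had 3.96 to 9.92 CPM in all libraries. Pdha1 and Pdhb, subunits of the complex these kinases act on, and the pyruvate carriers Mpc1 and Mpc2 were not called, with log2 fold changes from 0.08 to 0.58 against P7 cerebella and from 0.52 to 1.14 against SHH MB.

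Of the genes at the branches to glycogen and back to glucose, phosphoglucomutase Pgm1 (chromosome 4, 99786394 to 99844492) had 54.8, 74.0, 53.3 and 26.7 CPM in tumors 1 to 4, 29.2, 38.9 and 31.2 in P7 cerebella, and 20.1, 20.3 and 20.9 in SHH MB. It was called against SHH MB (log2 fold change 1.35, standard error 0.32, adjusted p = 0.0316), and tumor 4 lay below the cerebella. Pck2, of mitochondrial gluconeogenesis, had 55.8 CPM in tumor 1 and 5.74 to 21.4 in all other libraries. G6pc3, a glucose-6-phosphatase, had 10.4 to 28.8 CPM in the tumors and 7.97 to 13.2 in the controls. Fbp1 of gluconeogenesis was at 1, 0, 23 and 9 counts in tumors 1 to 4 and at 11 to 30 in the controls, so that tumors 1 and 2 were under the floor of 3 counts. None of these 3 genes was called.

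The 4 tumors differed widely from each other in many of these genes. Tumor 1 was the highest tumor for 21 of the 40 genes and the lowest for 8, tumor 4 the highest for 15 and the lowest for 1, and tumor 3 the highest for 2 and the lowest for 27. These orders hold for CPM, which depend on TMM factors of 0.619, 0.802, 1.28 and 0.881 in tumors 1 to 4. A lower factor raises each CPM of a library. The same orders were not counted over all genes. Genes highest in tumor 1 and lowest in tumor 3 included Eno2, Aldoc, Ldhb and Hk1, with ratios of the highest to the lowest tumor of 22.2, 21.6, 22.4 and 11.9. Genes lowest in tumor 1 and highest in tumor 4 were Hk2, Slc16a3, Ldha, Pdk1, Eno1, Pfkfb3, Slc16a1 and Pfkfb4, with ratios from 1.32 for Pfkfb4 to 18.0 for Slc16a3. Tpi1 and Gpi1, with ratios of 1.38 and 1.39, hardly varied in CPM. Before scaling by the TMM factors, Tpi1 had 856 of 6547245 counts in tumor 1 and 1335 of 5663491 in tumor 3, the reverse of their order in CPM. The summed levels of markers of mature granule neurons, Purkinje cells and myelin also were highest in tumor 1 and lowest in tumor 3, and proliferation markers were lowest in tumor 1, at 133 CPM. Astrocyte and Bergmann glia markers took another order, with 564, 2801, 595 and 2090 CPM in tumors 1 to 4. The part of such cells in the levels of these genes was not tested.

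**Figure D4:**
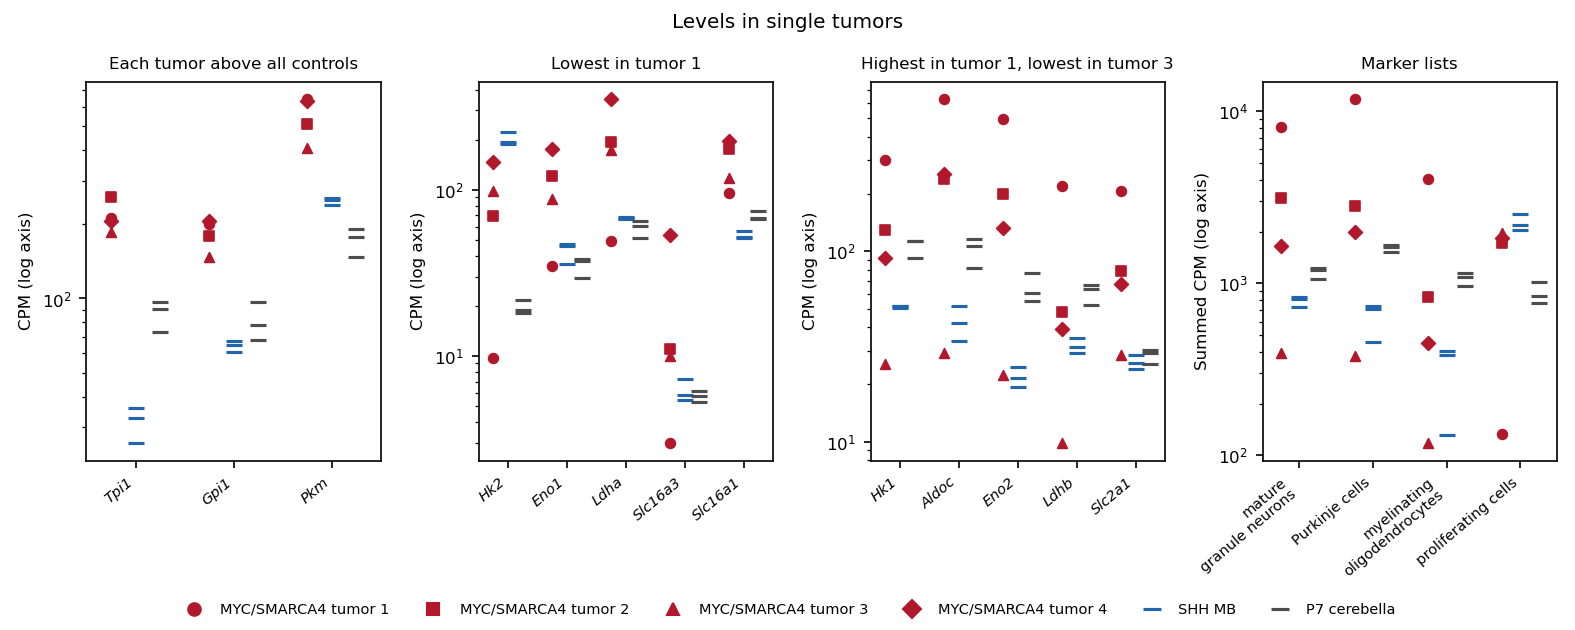
Level in CPM on a log axis of 13 genes, in 3 panels chosen after their values were seen, and the summed CPM of 4 marker lists in the last panel, with symbols for tumors 1 to 4 and dashes for controls. Circles of tumor 1 lie at the bottom for Hk2 (9.67 CPM) and Ldha (49.3 CPM) as for proliferation markers, and at the top for Eno2 (498 CPM) and Hk1 (303 CPM) as for neuronal markers.

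Tumor 1 carried the highest neuronal and the lowest proliferation markers, and the fit was therefore repeated without it, a choice made after these values were seen. It was also the lowest tumor for Ldha, Hk2, Pdk1, Slc16a3, Eno1 and Pfkfb3, so that leaving it out was bound to raise their means. Calls of these genes below are therefore no separate support. Against P7 cerebella, 14 of the 40 genes were then higher and 1 was lower, beside 11.1% of all genes higher and 5.00% lower. Ldha (log2 fold change 2.03, standard error 0.28, adjusted p = 0.000533), Hk2 (2.43, standard error 0.28, adjusted p = 0.000188), Pdk1, Slc16a3, Pgk1 and Slc2a1 joined the 8 genes called with all tumors, which all stayed, and Pfkp (-1.21, standard error 0.32, adjusted p = 0.0216) was the lower gene. Proliferation markers were also above P7 cerebella in tumors 2 to 4 and below SHH MB, and their part in these differences was not tested. Against SHH MB, 21 genes were higher and 1 was lower, beside 5.91% and 3.86% of all genes. Ldha (1.81, standard error 0.28, adjusted p = 0.00146), Eno1, Slc2a1, Slc16a3, Pdk2 and Pfkfb3 joined the 15, and Hk2 was lower (-0.95, standard error 0.26, adjusted p = 0.0367). The median over the 40 genes was smaller without tumor 1, with 0.46 against P7 cerebella and 0.90 against SHH MB. Without tumor 3 instead, Ldha and Hk2 were called against P7 cerebella (edgeR, adjusted p = 0.0322 and 0.0481). Ldha was then not called against SHH MB (0.0612), and Slc16a3 was called in neither comparison (0.0670 and 0.0974). That fit called Eno2, Aldoc and Slc2a3, all lowest in tumor 3, against P7 cerebella.

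In SHH MB against P7 cerebella, no gene of the list was called when all 10 libraries shared the estimate of the spread, beside 0.177% of all genes called higher and 0.0467% lower. Hk2 differed most, by 3.36 on the log2 scale (standard error 0.66, adjusted p = 0.0722, edgeR), and Tpi1 fell by 1.47 in the fit (standard error 0.27, adjusted p = 0.0511). At an unadjusted p under 0.05, Hk2 was higher and Tpi1, Eno2 and Mpc2 were lower, DESeq2 called 1 gene in each direction and limma none. Of all genes, DESeq2 called 1.72% higher and 0.669% lower, and limma 0.134% and 0.0217%. For all genes the unadjusted share was not counted here either. The median was -0.43, with 31 genes of negative sign. In a fit of only these 2 groups, 2 genes were higher and 18 lower, beside 13.4% and 10.3% of all genes, and without tumor 1 Hk2 was higher and Tpi1 lower, beside 2.30% and 0.867%. Without tumor 3 the calls were again Hk2 higher and Tpi1 lower, beside 0.665% and 0.874%. In the fit of 2 groups the higher genes were Hk2 (3.38, standard error 0.13, adjusted p = 4.95e-16) and Pkm (0.55, standard error 0.12, adjusted p = 0.000989), and among the lower ones were Eno2 (-1.53), Tpi1 (-1.44), Aldoc (-1.23), Hk1 (-1.03), Ldhb (-0.91) and Pfkm (-0.89). With 3 against 3 libraries, the exact permutation test cannot go below 0.1.

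Among neighbouring pathways, taken as lists, the citric acid cycle had 15 of 15 genes with a positive sign against both controls, and 2 of 15 were called each time, Idh3a and Sdhd. These are 13.3% of the list, beside 3.99% of all genes called higher against P7 cerebella and 2.43% against SHH MB. The median log2 fold changes of the list were 0.77 and 0.82, beside -0.05 and 0.01 over all genes. The share of all genes with a positive sign was not counted. Idh3a, of isocitrate dehydrogenase, had 154, 152, 86.5 and 120.3 CPM in tumors 1 to 4, 48.1 to 74.8 in P7 cerebella and 52.0 to 59.9 in SHH MB (log2 fold changes 1.01 and 1.22, adjusted p = 0.0499 and 0.0285). Sdhd, a membrane anchor of succinate dehydrogenase, had 49.4 to 84.2 CPM in the tumors and 20.7 to 33.2 in all controls (1.34 and 1.39, adjusted p = 0.0197 and 0.0163). Of 8 pentose phosphate genes, Rpia, which makes ribose phosphate, was higher against P7 cerebella with 25.8, 45.2, 42.4 and 43.5 CPM against 8.99 to 15.5 (1.63, standard error 0.30, adjusted p = 0.0114), and H6pd was higher against SHH MB (1.03, standard error 0.27, adjusted p = 0.0476). Of 13 genes of pyruvate entry and gluconeogenesis, Dlat, a core subunit of pyruvate dehydrogenase, was higher against SHH MB, with 70.1 to 179 CPM against 28.3 to 34.8 (1.79, standard error 0.33, adjusted p = 0.0088), and none was called against P7 cerebella. Of 21 other glycolytic isoforms and partners and of 10 transcriptional regulators of glucose use, none was called in either comparison, with 1 and 4 genes at an unadjusted p under 0.05 against P7 cerebella and 4 and 2 against SHH MB. These unadjusted counts also lack the share of all genes. No gene of these 5 lists was called lower. The 1 call of the pentose phosphate list in each comparison is 12.5% of its genes. For pyruvate entry and gluconeogenesis, the 1 call against SHH MB is 7.69%.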

How the data were processed

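RNA was isolated from FFPE tissue of 4 MYC/SMARCA4 tumors, 3 P7 cerebella and 3 SHH MB, depleted of ribosomal RNA and sequenced single-end. The authors deposited raw counts per gene, which they made with Trimmomatic 0.38.1, STAR 2.7.8a on GRCm39 and featureCounts 2.0.1, and a table of log2 scale values after the variance stabilizing transformation of DESeq2. Settings for strand and for reads with several alignments are not given in the sources used here. No column was without a sample.

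Counts were tested with the quasi-likelihood test of edgeR 4.0.16 in R 4.3.3 on all 10 libraries, after filterByExpr and TMM normalization, with Benjamini-Hochberg adjustment over 29952 genes and calls at an adjusted p of at most 0.05. The 3 comparisons share samples. The common dispersion was 0.178. DESeq2 1.42.0 and limma 3.58.1, the latter on the deposited log2 values, were alternatives, as were other normalization, filters, library sizes, samples in the fit, thresholds and leaving out each library. Exact permutation tests were two-sided on log2 CPM with a prior count of 2 or on shares, and cannot go below p = 0.029 for 4 against 3 libraries. Shares of isoforms used CPM per kilobase of the canonical transcript of the GENCODE annotation, and 66 share tests were adjusted together. Marker levels are sums of CPM over each list. The labels name separate samples but not all of their origins, so that p-values measure the spread between these samples. The floor of 3 counts covers counting error only. Standard errors come from the edgeR fit and include the spread between libraries. The fit was tested on simulated data. The 40 genes and all lists were chosen with earlier results of these data known. Values per library are given for genes called against either control and for isoforms of their families, and the others are summarised, as are genes of neighbouring pathways that were not called.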

Additional observations from a re-analysis of the deposited data

How the results depend on the processing

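The number of genes called higher against P7 cerebella, 8 with all libraries in edgeR, was 16 with DESeq2, 4 with limma on the deposited values and 0 in a fit of the 2 groups, where 9.29%, 1.49% and 0.206% of all genes were higher. It was 1 when log2 fold changes had to reach 1.5 with an adjusted p of at most 0.01, and 0 when they had to reach 2.5. The share of all genes past these stricter limits was not counted in any comparison. Leaving out 1 library gave 0 to 18 higher and 0 to 2 lower, beside 0.100% to 11.8% and 0.369% to 22.8% of all genes. A filter of at least 10 counts in every library gave 1 lower, beside 6.61% of all genes. Against SHH MB, the 15 genes became 8 with limma and 2 in a fit of the 2 groups, beside 0.839% and 0.337% of all genes. They became 2 and 1 at the stricter limits. Leaving out 1 library gave 1 to 22 higher and 0 to 1 lower, beside 0.166% to 9.57% and 0.789% to 13.9% of all genes. For SHH MB against P7 cerebella, with 0 genes called, DESeq2 and the fit without a filter called 1 higher, beside 1.72% and 0.154% of all genes. Leaving out 1 library gave 0 to 1 higher, beside 0.00% to 2.30%. Lower calls there were 1 with DESeq2 (0.669% of all genes), the stricter filter (0.354%) or robust estimation (0.0501%). They were also 1 with library sizes without mitochondrial and rRNA-like genes (0.0567%), and 0 to 1 on leaving out 1 library (0.00% to 0.874%). The fit of the 2 groups called 2 higher and 18 lower, beside 13.4% and 10.3%. The median of that comparison, -0.43, was -0.38 with DESeq2, -0.35 with limma, -0.38 without a filter, -0.50 with the stricter filter and -0.46 to -0.37 on leaving out 1 library. With the replicate number as a block, 0 genes were higher against P7 cerebella and 6 against SHH MB, beside 0.551% and 0.771% of all genes. Deviations of same-numbered libraries correlated with r from -0.27 to 0.16 over genes, and only the pair of tumor 3 and P7 cerebellum 3 was above 0.1. The labels name no link between them beyond the number, and a shared batch was not tested. Of 444 values of single called genes under the alternatives, all kept their direction, 270 kept their call and 174 lost it. Of 160 share values, 7 lost their unadjusted p under 0.05, all for leaving out a library from the Pgam1 share against SHH MB, where the smallest p possible is above 0.05. Counts of paired libraries differed more within the tumors, with a chi-square per degree of freedom of 31.9 to 124, than within either control group, with 4.29 to 7.05. All 10 libraries share 1 estimate of the spread in the main fit, and the part of this unequal spread in the calls was not tested. Some fits hold fewer samples, and the cause of these changes was not tested. Depth limits Fbp1, Pgam2 and Gapdh, which have few counts.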
